A study of Homo sapiens with 12 samples.

Results

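The oxysterol-binding protein family was followed through GOLM1 knockdown in A549, a human lung adenocarcinoma cell line. The human family counts 12 genes in the deposited table, and 10 of them are described here as its members: OSBP, OSBP2, OSBPL1A, OSBPL2, OSBPL3, OSBPL5, OSBPL8, OSBPL9, OSBPL10 and OSBPL11. They were picked by gene symbol out of 57773 genes, and OSBP2 entered for its higher level with both GOLM1 siRNAs, so its difference from control is a description without a test. OSBPL6 and OSBPL7 are given beside the members as the rest of the family. All 12 genes passed the filter on low counts, as did 17532 genes in total.

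The cells received siGOLM1-1, siGOLM1-2 or a non-targeting control siRNA, each at 50 nM with a lipid reagent, and were harvested after 72 h. Each group had 4 libraries of poly(A)-selected RNA, called biological replicates in the labels, from one line grown in serum-containing F-12K medium. Nothing in the labels says whether they were transfected on separate days. The p-values therefore set each difference against the spread between these libraries only, estimated over all 3 groups in 1 fit. Levels are given in CPM, the counts of a gene relative to the library total after scaling for library composition.

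The family moves lipids at membrane contact sites, places where the endoplasmic reticulum (ER) lies against another organelle. Each protein has a lipid-binding domain, which in the best-studied members exchanges a sterol or phosphatidylserine (PS) for the phosphoinositide PI4P. Many members also carry a pleckstrin homology (PH) domain, which reads phosphoinositides on the target membrane, and an FFAT motif, which docks on the VAP proteins of the ER. OSBP itself carries cholesterol to the trans-Golgi and brings back PI4P, which the ER phosphatase SAC1 then degrades.

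GOLM1, a Golgi membrane protein and the target of both siRNAs, held 37.5 to 38.9 CPM with siGOLM1-1, 44.6 to 53.4 CPM with siGOLM1-2 and 345 to 378 CPM in control. It fell by 3.25 on the log2 scale with siGOLM1-1 (SE 0.07, adjusted p = 4.97e-12) and fell by 2.95 with siGOLM1-2 (adjusted p = 1.57e-11). Library totals ran from 41617042 to 71344718 counts, so each member rested on 168 to 9283 counts in any 1 library. Some libraries stood apart. Deviations from the group mean correlated across genes at 0.33 between control replicates 1 and 2 and at 0.39 between replicates 3 and 4, but at -0.70 to -0.66 between one pair and the other. Centring on the mean of 4 libraries alone gives about -0.33. Replicate 4 of siGOLM1-2 correlated at -0.65 to -0.40 with the rest of its group, and replicate 1 of siGOLM1-1 at -0.49 to -0.39 with its own. Members that differ between these libraries are therefore given against each control pair as well. Of the epithelial markers, KRT8, KRT18, KRT19, EPCAM and CDH1 were detected in every library. Their sum was 2720 to 3300 CPM with siGOLM1-1, 5280 to 5460 CPM with siGOLM1-2 and 4800 to 6800 CPM in control, and its part in the results was not tested. KRT8 and KRT18 made up most of this sum. In the same order of groups, CDH1 held 107 to 129, 100 to 137 and 96.8 to 136 CPM. KRT19 held 51.5 to 142, 155 to 331 and 64.5 to 77.7 CPM, and EPCAM lay between 3.02 and 6.28 CPM in all libraries. Of the 5 alveolar markers, SFTPA1 was at 0 in every library, NKX2-1, SFTPB and SFTPC stayed at or under 0.275 CPM, and NAPSA held 1.76 to 3.32 CPM. Markers of other cell types were 8 genes, without PECAM1, which was not found by its symbol. They summed to 48.6 to 93.4 CPM with siGOLM1-1, 24.4 to 37.5 CPM with siGOLM1-2 and 33.5 to 72.8 CPM in control. COL1A1 made up most of these sums, and the leukocyte marker PTPRC stayed at or under 0.0404 CPM.

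OSBP2, whose protein is also named ORP4, has 2 annotated start sites, and its promoters differ in base composition from each other and from that of its paralogue OSBP. They are shown because OSBP2 was the member with the highest ratio of highest to lowest library (15.5) and OSBP the one with the lowest (1.2). Each run holds 250 bases before and 50 after an annotated start, read from RefSeq's GRCh38.p14 tables in the direction of transcription. Capitals mark the GC box, GGGCGG or its reverse complement.
OSBP2, upstream start, chr22:30764003-30764302, plus strand: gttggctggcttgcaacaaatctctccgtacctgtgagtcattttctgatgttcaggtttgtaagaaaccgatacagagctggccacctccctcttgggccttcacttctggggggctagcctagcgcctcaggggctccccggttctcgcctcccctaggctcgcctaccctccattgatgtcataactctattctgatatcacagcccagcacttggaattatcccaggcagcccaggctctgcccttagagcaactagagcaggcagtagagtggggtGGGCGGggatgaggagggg
OSBP2, downstream start, chr22:30822266-30822565, plus strand: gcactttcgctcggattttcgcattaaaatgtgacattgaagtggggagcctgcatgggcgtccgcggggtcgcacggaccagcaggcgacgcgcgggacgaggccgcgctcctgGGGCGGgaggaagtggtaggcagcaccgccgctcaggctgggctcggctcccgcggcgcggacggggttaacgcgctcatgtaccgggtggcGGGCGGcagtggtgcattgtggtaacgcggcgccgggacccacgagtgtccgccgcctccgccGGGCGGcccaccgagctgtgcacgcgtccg
OSBP, chr11:59615725-59616024, minus strand: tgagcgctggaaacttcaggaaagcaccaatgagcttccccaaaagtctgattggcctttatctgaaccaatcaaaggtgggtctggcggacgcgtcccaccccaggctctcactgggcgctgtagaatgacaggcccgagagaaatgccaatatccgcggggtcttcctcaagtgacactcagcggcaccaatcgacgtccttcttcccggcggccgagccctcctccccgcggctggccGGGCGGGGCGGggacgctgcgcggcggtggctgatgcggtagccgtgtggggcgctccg
The upstream OSBP2 promoter held 7 CpG sites and 1 GC box, and the downstream one 43 CpG sites and 3 GC boxes. The OSBP promoter held 27 CpG sites and 2 overlapping GC boxes, and the median of 35116 RefSeq promoters was 14 CpG sites. A GC box on either strand occurred in 45% of all promoters. The AP-1 motif TGANTCA occurred once in the upstream OSBP2 promoter, in neither of the others, and in 7.71% of all promoters. The TATAAA and CACGTG motifs were in none of the 3 windows (11.5% and 7.26% of all promoters, both strands searched). Nor was the antioxidant response element TGACNNNGC (13.3% of all promoters). The CCAAT motif occurred 5 times in the OSBP window, in neither OSBP2 window, and in 34.6% of all promoters. The counts are per gene and do not separate transcripts from the start sites.

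OSBP2 was several-fold higher in each knockdown group than in control. It held 22.1, 35.2, 45.2 and 32.3 CPM with siGOLM1-1, and 23.6, 25.4, 23.3 and 55.1 CPM with siGOLM1-2. Control libraries held 6, 5.70, 3.56 and 3.93 CPM. Each of the 8 knockdown libraries lay above each control library, and the siGOLM1-1 and siGOLM1-2 ranges overlapped. The fold was 7.03 with siGOLM1-1 (log2 fold change 2.81, SE 0.32) and 6.64 with siGOLM1-2 (2.73, SE 0.32). The authors' deposited tables gave OSBP2 at 2.83 with siGOLM1-1 and 2.75 with siGOLM1-2.

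Within groups, OSBP2 spread more than any other member in the knockdown libraries. Its coefficient of variation was 28.3% with siGOLM1-1, 48.8% with siGOLM1-2 and 25.7% in control. Replicate 4 of siGOLM1-2 was at 55.1 CPM, and the other siGOLM1-2 libraries lay between 23.3 and 25.4 CPM. Without that library the log2 fold change with siGOLM1-2 was 2.33. Against control replicates 1 and 2 alone it was 2.52 with siGOLM1-1 and 2.44 with siGOLM1-2, and against replicates 3 and 4 alone 3.18 and 3.10.

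The choice of OSBP2 did not rest on the direct comparison of the siRNAs, but it used the same libraries. A gene picked for rising with both siRNAs is favoured to differ little between them. In the direct comparison OSBP2 was at 0.08 (SE 0.29, adjusted p = 0.832), with a 95% interval of -0.54 to 0.70 on the log2 scale. Without siGOLM1-2 replicate 4 the value was 0.48 (adjusted p = 0.0812).

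OSBP, the founding member and Golgi cholesterol carrier, varied by a few percent within groups, with coefficients of variation of 2.65% with siGOLM1-1, 2.36% with siGOLM1-2 and 3.07% in control. Its levels were 111, 109, 111 and 105 CPM with siGOLM1-1, 113, 119, 115 and 116 CPM with siGOLM1-2, and 99.3, 101, 106 and 105 CPM in control. The siGOLM1-2 libraries lay above both other groups, while siGOLM1-1 and control overlapped. With siGOLM1-2 OSBP rose by 0.17 (SE 0.05, adjusted p = 0.0198), and with siGOLM1-1 it was at 0.08 (SE 0.05, adjusted p = 0.221). The siGOLM1-2 call ended in 4 of 20 alternatives, among them control replicates 3 and 4 alone (0.15, adjusted p = 0.104) and without control replicate 1 (0.15, adjusted p = 0.0606) or siGOLM1-2 replicate 2 (0.15, adjusted p = 0.0648). Per kilobase of exon, OSBP2 was at 25.3% ± 6.94 of the OSBP level with siGOLM1-1, 22.6% ± 11 with siGOLM1-2 and 3.84% ± 1.10 in control (SD, n = 4 each).

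**Figure D1:**
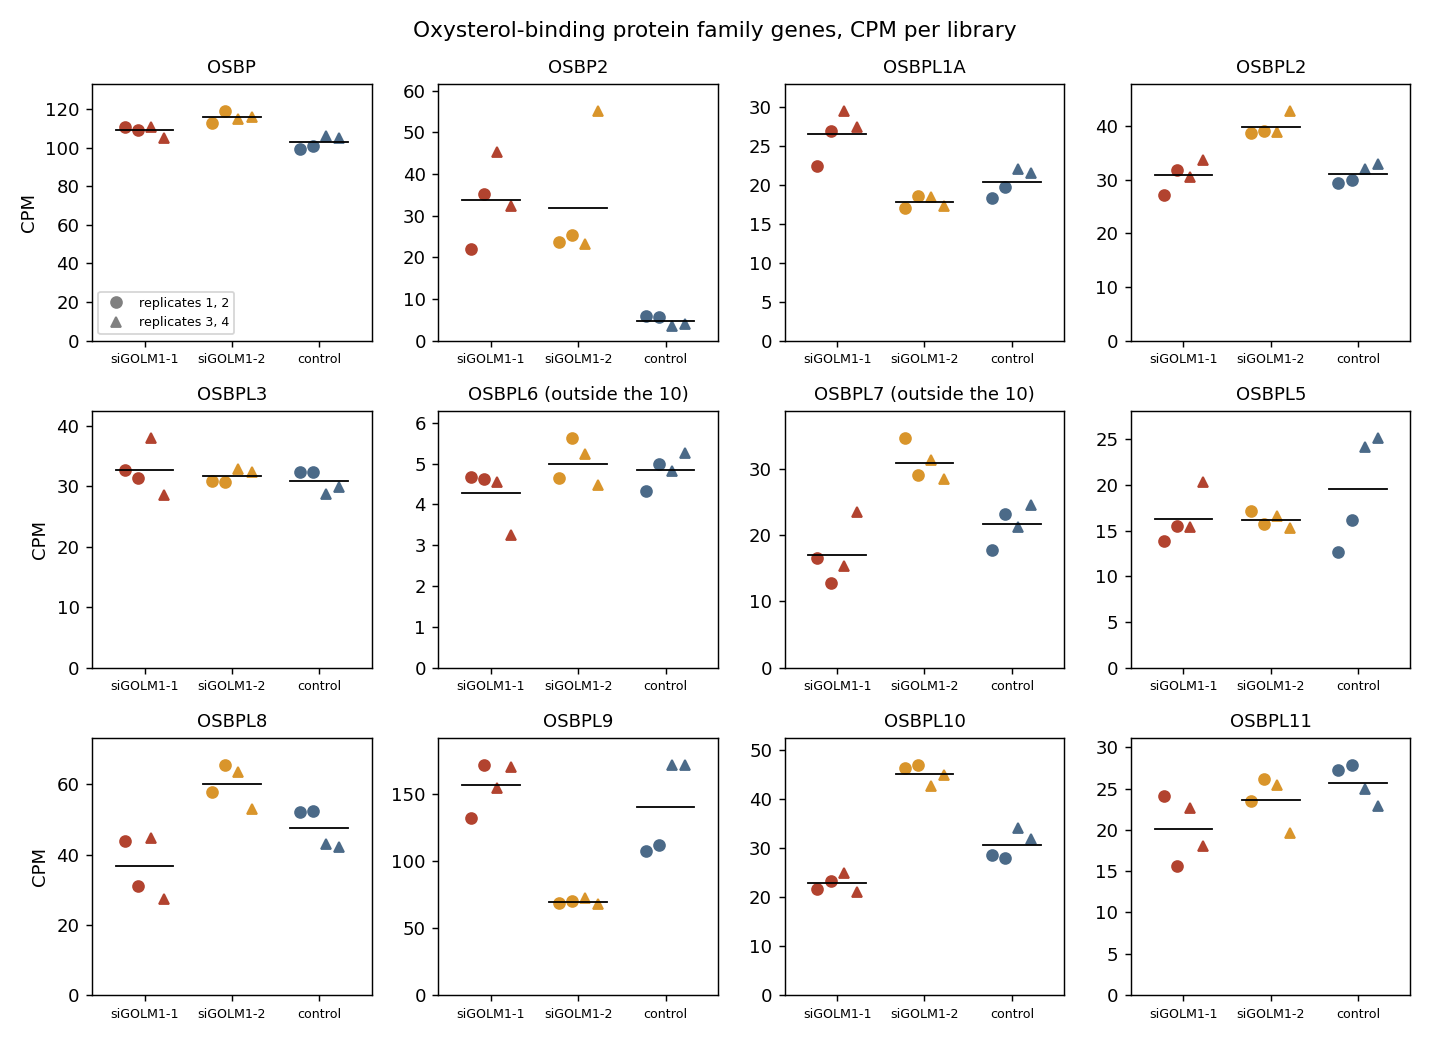
CPM of each family gene (y axis from 0) in the 12 libraries, by group (x axis); circles are replicates 1 and 2, triangles replicates 3 and 4, and bars group means. OSBP2 lies between 22.1 and 55.1 CPM in the knockdown libraries and between 3.56 and 6 CPM in control, and OSBPL9 splits the control libraries into 107 and 112 against 171 and 171 CPM.

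The members other than OSBP2 had smaller fold changes, and of them OSBPL10 alone was called with both siRNAs. With siGOLM1-1, 1 of these 9 was called higher and 2 lower at an adjusted p under 0.05, where 47.5% of all genes were called (23.7% higher, 23.8% lower). With siGOLM1-2, 3 were called higher and 1 lower, where 45% of all genes were called (21.8% higher, 23.2% lower). The median log2 fold change of the 9 was -0.01 with siGOLM1-1 and 0.04 with siGOLM1-2, and that of all genes was -0.01 in each. Both comparisons share the control libraries. The share of all genes called with both siRNAs, in the same or in opposite directions, was not counted. Groups did not overlap for 2 of the 9 members with siGOLM1-1, against 41% of all genes, and for 5 of 9 with siGOLM1-2, against 45.9%. When only library totals were used for scaling, 43% of all siGOLM1-1 calls and 59.2% of all siGOLM1-2 calls were higher, against 49.8% and 48.4% with composition scaling.

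OSBPL1A and OSBPL2, which form a subfamily, each rose with a different siRNA. OSBPL1A, or ORP1, encodes a long form with ankyrin repeats that senses cholesterol on late endosomes and a short form. It held 22.5, 26.9, 29.5 and 27.5 CPM with siGOLM1-1, 17.0, 18.6, 18.4 and 17.3 CPM with siGOLM1-2, and 18.3, 19.8, 22.0 and 21.5 CPM in control. The siGOLM1-1 libraries lay above all others. OSBPL1A rose with siGOLM1-1 (0.38, SE 0.09, adjusted p = 0.00349) and was at -0.19 with siGOLM1-2 (SE 0.09, adjusted p = 0.102).

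OSBPL2, or ORP2, is a short member without a PH domain that delivers cholesterol to the plasma membrane. Its libraries held 27.1, 31.9, 30.6 and 33.7 CPM with siGOLM1-1, 38.8, 39.1, 39.0 and 42.8 CPM with siGOLM1-2, and 29.4, 29.9, 32.0 and 32.9 CPM in control. The siGOLM1-2 libraries lay above all others. It rose with siGOLM1-2 (0.36, SE 0.08, adjusted p = 0.00179), and with siGOLM1-1 it was at -0.01 (SE 0.08, 95% interval -0.18 to 0.16).

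In the subfamily of OSBPL3, OSBPL6 and OSBPL7, OSBPL3, or ORP3, which takes part in R-Ras signalling and cell adhesion, was at 28.5 to 37.9 CPM with siGOLM1-1, 30.7 to 32.9 CPM with siGOLM1-2 and 28.7 to 32.4 CPM in control. The groups overlapped. The 95% intervals were -0.10 to 0.26 with siGOLM1-1 and -0.14 to 0.22 with siGOLM1-2. OSBPL7, one of the genes outside the 10, held 16.6, 12.8, 15.3 and 23.5 CPM with siGOLM1-1, 34.6, 29, 31.3 and 28.4 CPM with siGOLM1-2, and 17.8, 23.2, 21.2 and 24.6 CPM in control. It rose with siGOLM1-2 (0.51, SE 0.16, adjusted p = 0.0177), a call that ended with control replicates 3 and 4 alone (0.44, adjusted p = 0.0837) and without control replicate 1 (0.42) or siGOLM1-2 replicate 1 (0.45). With siGOLM1-1 it was at -0.35 (adjusted p = 0.0844), and it was called lower without siGOLM1-1 replicate 4 (-0.54, adjusted p = 0.00398) or control replicate 1 (-0.43, adjusted p = 0.0446). OSBPL6 was the lowest of the family per kilobase, at 3.24 to 5.62 CPM over all libraries, and was called in neither comparison with control.

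OSBPL5 and OSBPL8 encode a pair of close relatives, and their proteins ORP5 and ORP8 are anchored in the ER and carry PS to the plasma membrane in exchange for PI4P. OSBPL8 held 44.0, 30.9, 44.6 and 27.3 CPM with siGOLM1-1, 57.9, 65.4, 63.6 and 53.1 CPM with siGOLM1-2, and 52.2, 52.4, 42.9 and 42.3 CPM in control. The siGOLM1-2 libraries lay above all others, and siGOLM1-1 replicates 2 and 4 lay below all others. It was at -0.37 with siGOLM1-1 (SE 0.15, adjusted p = 0.0544) and 0.34 with siGOLM1-2 (SE 0.15, adjusted p = 0.0781), called in neither comparison. Of 20 alternatives, 7 called it lower with siGOLM1-1, among them control replicates 1 and 2 alone (-0.51, adjusted p = 0.0355) and the DESeq2 test (-0.36, adjusted p = 0.0485). With siGOLM1-2, 3 called it higher, among them control replicates 3 and 4 alone (0.51, adjusted p = 0.0406). The other control pair gave no call. OSBPL8 was at -0.20 with siGOLM1-1 against control replicates 3 and 4 alone (adjusted p = 0.382). It was at 0.20 with siGOLM1-2 against replicates 1 and 2 alone (adjusted p = 0.423).

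OSBPL5 held 13.9, 15.5, 15.4 and 20.3 CPM with siGOLM1-1, 17.1, 15.7, 16.6 and 15.3 CPM with siGOLM1-2, and 12.7, 16.2, 24.2 and 25.1 CPM in control. Control replicates 3 and 4 were the highest libraries, and control replicate 1 the lowest. OSBPL5 was at -0.27 with siGOLM1-1 (SE 0.19, adjusted p = 0.255) and -0.28 with siGOLM1-2 (SE 0.19, adjusted p = 0.249). Against control replicates 1 and 2 alone these values were 0.17 and 0.16. Against replicates 3 and 4 alone each was -0.59, with adjusted p of 0.00313 and 0.00327, so the direction followed the control pair. Without control replicate 1 each was called lower as well (-0.43, adjusted p = 0.0364, and -0.44, adjusted p = 0.0345).

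OSBPL9, OSBPL10 and OSBPL11 encode ORP9, ORP10 and ORP11, of which ORP9 binds ORP10 or ORP11 to form exchangers of PS and PI4P at Golgi and endosome contacts. OSBPL9 held 132, 171, 154 and 170 CPM with siGOLM1-1, 68.5, 70.3, 71.9 and 67.7 CPM with siGOLM1-2, and 107, 112, 171 and 171 CPM in control. The siGOLM1-2 libraries lay below all others, and the siGOLM1-1 and control ranges overlapped. OSBPL9 fell with siGOLM1-2 (-1.01, SE 0.15, adjusted p = 0.000106), which is 2.02-fold lower. It was lower against each control pair, at -0.66 against replicates 1 and 2 (adjusted p = 0.000306) and at -1.28 against replicates 3 and 4 (adjusted p = 1.08e-06). With siGOLM1-1 it was at 0.16 (SE 0.15, adjusted p = 0.386), with 0.52 against control replicates 1 and 2 (adjusted p = 0.00168) and -0.12 against replicates 3 and 4 (adjusted p = 0.378). In GENCODE release 29, 163 of its 9523 exon bases overlap NRDC on the other strand, and 473 overlap AL050343.1 on the same strand. Over all libraries, AL050343.1 held 529 counts and NRDC 124983, against 75259 for OSBPL9. The library kit was stranded, and the strand setting of the counting was not named.

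OSBPL10 moved in opposite directions with the siRNAs. It held 21.7, 23.3, 24.9 and 21.0 CPM with siGOLM1-1, 46.2, 46.8, 42.6 and 44.9 CPM with siGOLM1-2, and 28.6, 27.9, 34.0 and 31.8 CPM in control. No libraries of any 2 groups overlapped. OSBPL10 fell with siGOLM1-1 (-0.43, SE 0.08, adjusted p = 0.000692) and rose with siGOLM1-2 (0.56, SE 0.08, adjusted p = 8.80e-05), and both calls held against each control pair. Per kilobase of exon, OSBPL9 was 8.73 ± 1.22 times OSBPL10 with siGOLM1-1, 1.94 ± 0.12 times with siGOLM1-2 and 5.72 ± 0.994 times in control (SD, n = 4 each).

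OSBPL11 held 24.1, 15.6, 22.6 and 18.0 CPM with siGOLM1-1, 23.5, 26.2, 25.4 and 19.6 CPM with siGOLM1-2, and 27.2, 27.8, 24.9 and 22.9 CPM in control. The 3 groups overlapped. It fell with siGOLM1-1 (-0.36, SE 0.13, adjusted p = 0.0411), and was at -0.12 with siGOLM1-2 (SE 0.13, adjusted p = 0.501). The siGOLM1-1 call ended in 7 of 20 alternatives. These were control replicates 3 and 4 alone (-0.24, adjusted p = 0.265) and the omission of siGOLM1-1 replicate 2 (-0.25) or 4 (-0.31), siGOLM1-2 replicate 1 (-0.36), or control replicate 1 (-0.33), 2 (-0.31) or 3 (-0.37). Replicates 2 and 4 of siGOLM1-1 were the lower libraries of their group for OSBPL8 and OSBPL11 alike.

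**Figure D2:**
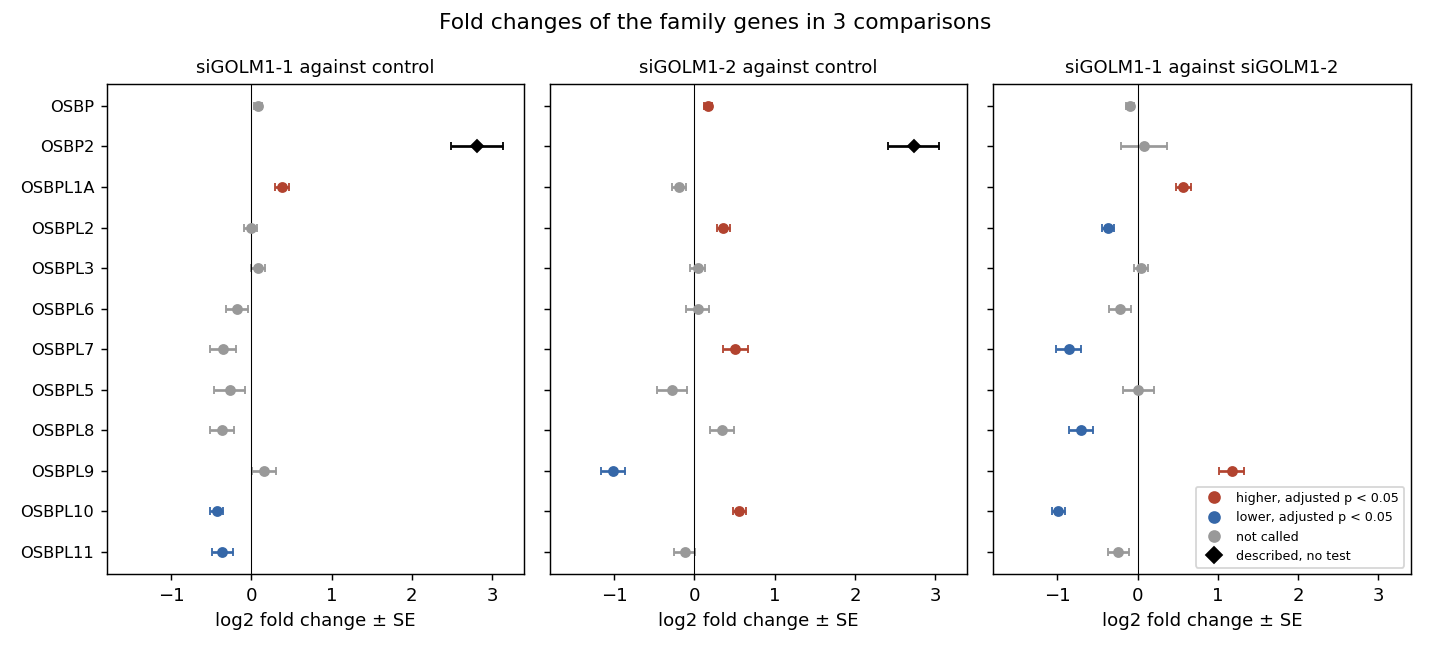
Log2 fold changes (x axis, bars ± SE, n = 4 libraries per group) of the 12 family genes (rows) in 3 comparisons; red and blue points have an adjusted p under 0.05, grey points do not, and black diamonds are described without a test. OSBP2 is at 2.81 and 2.73 against control and 0.08 between the siRNAs, and OSBPL9 and OSBPL10 are at 1.17 and -0.99 between the siRNAs.

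Directly compared, siGOLM1-1 and siGOLM1-2 differed in 5 of the 10 members, 2 higher and 3 lower with siGOLM1-1. Without OSBP2 it was 5 of 9. Of all genes, 54.4% were called (27.9% higher, 26.5% lower). The median log2 difference was -0.04 over the members and 0.01 over all genes. OSBPL9 was higher with siGOLM1-1 by 1.17 (SE 0.15, adjusted p = 1.77e-05) and OSBPL1A by 0.57 (SE 0.09, adjusted p = 0.000121). Lower with siGOLM1-1 were OSBPL10 (-0.99, SE 0.08, adjusted p = 3.06e-07), OSBPL8 (-0.71, SE 0.15, adjusted p = 0.00119) and OSBPL2 (-0.37, SE 0.08, adjusted p = 0.00103). The groups' libraries did not overlap for these 5 genes or for OSBP, 6 of 10 members against 48.4% of all genes. These 5 calls held in each of 20 alternatives.

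OSBP2, OSBP, OSBPL3, OSBPL5 and OSBPL11 were not called between the siRNAs. Their 95% intervals were -0.20 to 0.03 for OSBP, -0.14 to 0.22 for OSBPL3, -0.39 to 0.41 for OSBPL5 and -0.53 to 0.05 for OSBPL11. When only library totals were used for scaling, the median of all genes moved from 0.01 to -0.12 in this comparison. There 37.4% of all calls were higher with siGOLM1-1, against 51.2%, and OSBP and OSBPL11 were called lower (-0.22 and -0.37). OSBPL7, outside the 10, was lower with siGOLM1-1 than with siGOLM1-2 (-0.86, SE 0.16, adjusted p = 0.00044).

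**Figure D3:**
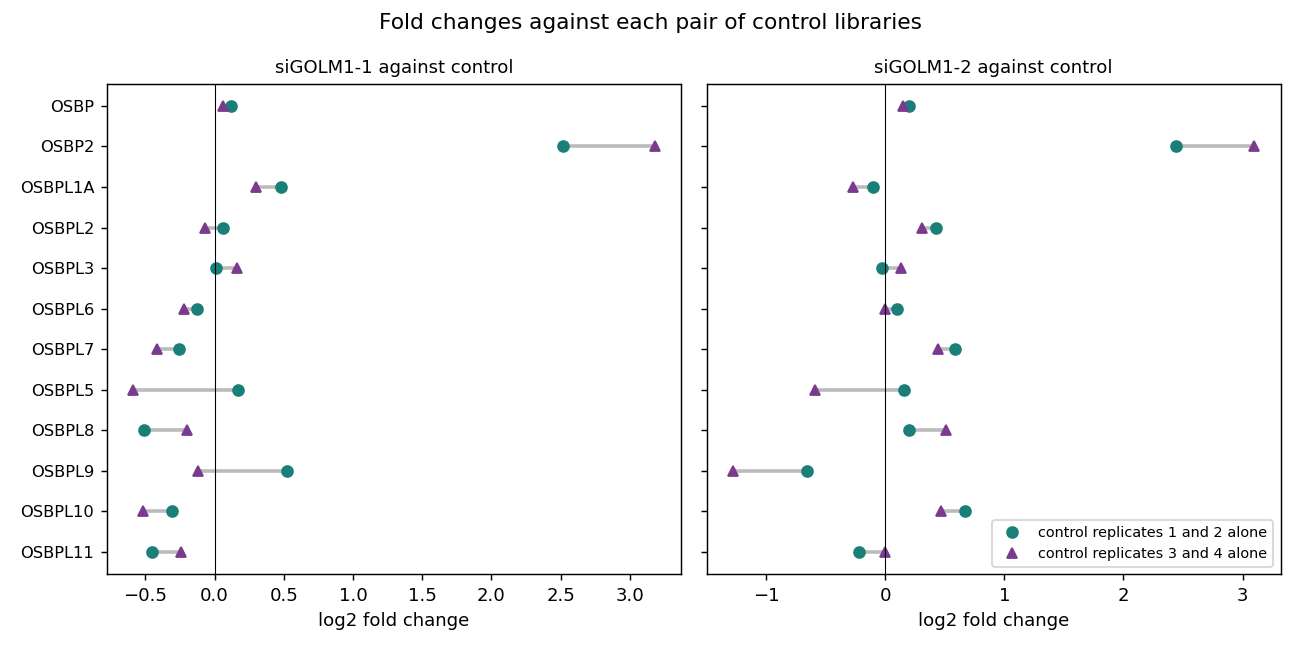
Log2 fold change of each family gene (rows) for siGOLM1-1 and siGOLM1-2 against control replicates 1 and 2 alone (circles) or 3 and 4 alone (triangles). OSBPL5 is at 0.17 and 0.16 against replicates 1 and 2 but at -0.59 against replicates 3 and 4, OSBPL9 with siGOLM1-1 is at 0.52 and -0.12, and OSBP2 lies between 2.44 and 3.18.

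The family's make-up was compared per kilobase of exon, which scales each gene by the merged exons of all its annotated transcripts. Which of these transcripts the cells made is not known, so shares and ranks between genes are approximate. The sum over the 12 genes was 66.9 ± 3.17 CPM per kb with siGOLM1-1, 65.6 ± 1.31 with siGOLM1-2 and 63.1 ± 4.46 in control (SD, n = 4 each). OSBP took the largest share in each group, at 29.7% ± 1.53 with siGOLM1-1, 32.2% ± 0.512 with siGOLM1-2 and 29.8% ± 1.21 in control. OSBP2 took 7.46% ± 1.79 of the sum with siGOLM1-1, 7.22% ± 3.41 with siGOLM1-2 and 1.15% ± 0.374 in control. By mean share it ranked 3 of 12 with siGOLM1-1, 5 of 12 with siGOLM1-2 and 11 of 12 in control, where OSBPL6 alone was lower. With siGOLM1-1, OSBP2 ranked 6 in replicate 1, at 5.20%, and 3 in replicates 2 to 4. Its mean share there ranked 4 without replicate 2 or without replicate 3. With siGOLM1-2 it ranked 8, 7 and 8 in replicates 1 to 3, at 5.51%, 5.72% and 5.31%, and 2 in replicate 4, at 12.3%. Without replicate 4 the mean share with siGOLM1-2 was 5.52%, ranking 8. OSBPL9 took 24.6% ± 2.69 with siGOLM1-1, 11.1% ± 0.381 with siGOLM1-2 and 23.1% ± 4.33 in control, ranking 2 in each group. In these bulk samples, more cells with the transcript and more RNA per cell cannot be told apart.

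**Figure D4:**
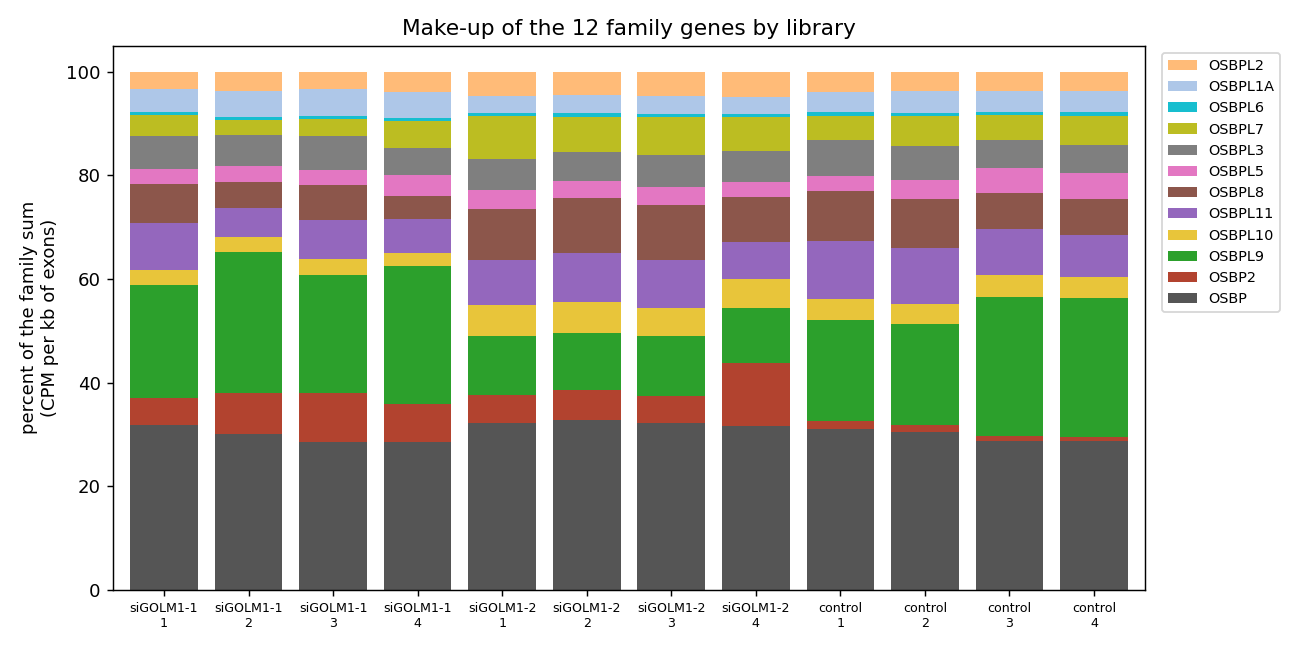
Share of each of the 12 family genes in the family sum (y axis, percent of CPM per kb of exons) in each library (x axis). OSBP2 (red, above OSBP) takes 5.20% to 12.3% in the knockdown libraries and 0.794% to 1.54% in control, and OSBPL9 (green) is narrower with siGOLM1-2 than in the other groups.

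The genes whose pattern was most like OSBP2 were TMOD1, QSOX1, RASA3, KCNK6 and NDRG4. They had the highest Pearson correlations of log2 CPM with OSBP2 over the 12 libraries, from 0.985 to 0.994, among 11197 genes that averaged 5 CPM or more. The points share libraries and fall into knockdown and control clusters, and the correlations are a description of the genes chosen by them. TMOD1, which caps actin filaments, averaged 14.9 CPM with siGOLM1-1, 14.5 with siGOLM1-2 and 1.60 in control. QSOX1, a sulfhydryl oxidase of the secretory pathway, averaged 184, 185 and 106 CPM in the same groups. RASA3, a Ras GTPase-activating protein, averaged 28.9 CPM with siGOLM1-1, 29.9 with siGOLM1-2 and 10.6 in control. Each of the 5 genes, like OSBP2, had its highest level in siGOLM1-2 replicate 4, a likeness that the choice of genes on these same libraries favours.

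**Figure D5:**
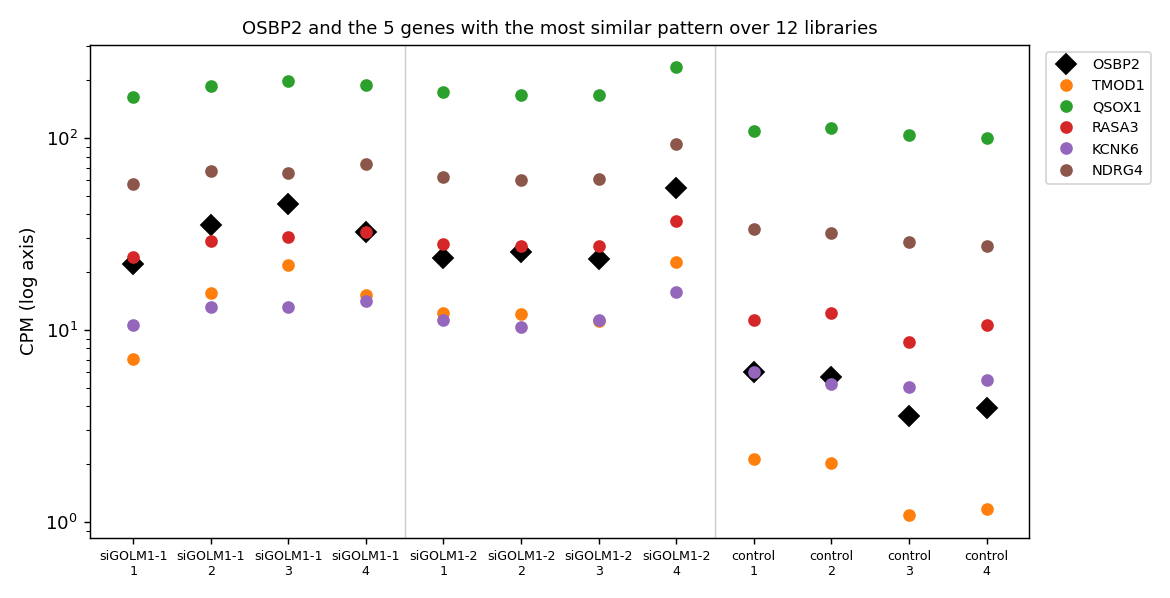
CPM (log axis) of OSBP2 (black diamonds) and the 5 genes with the most similar pattern (circles) in each library (x axis). Replicate 4 of siGOLM1-2 holds the highest value of every gene shown, with OSBP2 at 55.1 and TMOD1 at 22.7 CPM.

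Genes that work with the family were followed in 4 lists. Of all genes, 23.7% were called higher and 23.8% lower with siGOLM1-1, and 21.8% and 23.2% with siGOLM1-2. Their median log2 fold change was -0.01 in each comparison. How many of all genes the siRNAs moved in opposite directions was not counted. Of 14 ER contact tethers, which hold the ER against other membranes, 6 were higher, 3 lower and 5 not called with siGOLM1-1 (median 0.10). With siGOLM1-2, 1 was higher, 3 lower and 10 not called (median 0.04). The VAP-related MOSPD1 rose with siGOLM1-1 (0.99, adjusted p = 0.000114) and fell with siGOLM1-2 (-0.63, adjusted p = 0.00393). The extended synaptotagmin ESYT1 did likewise (0.20, adjusted p = 0.0162, and -0.64, adjusted p = 2.80e-06). C2CD2L, a phosphatidylinositol transporter at the plasma membrane, went the other way (-1.06, adjusted p = 2.70e-06, and 0.45, adjusted p = 0.00264). The related ESYT2 rose with siGOLM1-1 (0.46, adjusted p = 2.52e-05) and was at -0.03 with siGOLM1-2.

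The makers, erasers and readers of PI4P, the lipid that the family uses as exchange currency, had 9 of 19 tested genes higher, 5 lower and 5 not called with siGOLM1-1 (median 0.17). With siGOLM1-2, 4 were higher, 3 lower and 12 not called (median -0.02). PIP5K1B did not pass the filter. SACM1L, which encodes the PI4P phosphatase SAC1, averaged 26.8 ± 2.73 CPM with siGOLM1-1, 18.1 ± 2.07 with siGOLM1-2 and 38.7 ± 1.99 in control (SD, n = 4 each). It fell with both (-0.53, adjusted p = 0.00041, and -1.09, adjusted p = 1.39e-06). EFR3A and EFR3B, which anchor a PI4-kinase complex at the plasma membrane, rose with both siRNAs. EFR3A was at 0.45 with siGOLM1-1 (adjusted p = 0.000838) and 0.56 with siGOLM1-2 (adjusted p = 0.000164), and EFR3B at 0.92 (adjusted p = 9.71e-05) and 0.47 (adjusted p = 0.0128). ACBD3, which recruits a PI4-kinase to the Golgi, rose with siGOLM1-1 (0.88, adjusted p = 1.58e-07) and fell with siGOLM1-2 (-0.44, adjusted p = 8.57e-05). GBF1, the Golgi activator of ARF1, averaged 58.9 ± 6.91 CPM with siGOLM1-1, 135 ± 2.89 with siGOLM1-2 and 144 ± 16.7 in control. It fell with siGOLM1-1 (-1.29, adjusted p = 1.60e-07) and was at -0.09 with siGOLM1-2 (adjusted p = 0.437).

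A list of other lipid transfer proteins and their relatives held 21 genes. Of these, 8 were higher, 5 lower and 8 not called with siGOLM1-1 (median 0.12). With siGOLM1-2, 13 were higher, 2 lower and 6 not called (median 0.36). The phosphatidylinositol transfer protein gene PITPNC1 rose with both (0.56, adjusted p = 0.00171, and 1.33, adjusted p = 1.87e-06), while its relative PITPNB fell with both (-0.51, adjusted p = 6.58e-05, and -0.76, adjusted p = 3.32e-06). Another relative, PITPNA, rose with both (0.64, adjusted p = 4.70e-06, and 0.39, adjusted p = 0.000336), as did STARD10, a phospholipid carrier (0.53, adjusted p = 0.00226, and 0.96, adjusted p = 2.52e-05). PLEKHA3, a PI4P reader of the trans-Golgi, fell with siGOLM1-1 (-0.98, adjusted p = 1.68e-06) and rose with siGOLM1-2 (0.43, adjusted p = 0.00148). The sterol carrier STARD4 fell with siGOLM1-1 (-0.75, adjusted p = 3.03e-05) and was at 0.09 with siGOLM1-2 (adjusted p = 0.501).

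Of 7 tested enzymes of oxysterol and PS metabolism, 2 were higher, 1 lower and 4 not called with siGOLM1-1 (median -0.11), and 4 were higher and 3 not called with siGOLM1-2 (median 0.27). CH25H, the cholesterol 25-hydroxylase, did not pass the filter. HSD3B7, which modifies oxysterols on the way to bile acids, averaged 46.0 ± 8.86 CPM with siGOLM1-1, 54.1 ± 3.24 with siGOLM1-2 and 20 ± 0.714 in control. It rose with both (1.20, adjusted p = 2.86e-06, and 1.43, adjusted p = 9.64e-07). PTDSS2, a PS synthase, rose slightly with both (0.21, adjusted p = 0.0276, and 0.27, adjusted p = 0.00756). PISD, which turns PS into phosphatidylethanolamine, rose with siGOLM1-2 (0.45, adjusted p = 0.00733) and was at 0.26 with siGOLM1-1 (adjusted p = 0.09). CYP7B1, an oxysterol hydroxylase of low level here, averaged 0.723 ± 0.211 CPM with siGOLM1-1, 1.32 ± 0.279 with siGOLM1-2 and 1.49 ± 0.56 in control. It fell with siGOLM1-1 (-1.02, adjusted p = 0.011) and was at -0.17 with siGOLM1-2 (adjusted p = 0.662). The counts of the 4 lists lie beside backgrounds of 47.5% of all genes called with siGOLM1-1 and 45% with siGOLM1-2.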

How the data were processed

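RNA was sequenced from 12 libraries, 4 per group. Per the submitters' processing notes, the authors used bcl2fastq 2.20, STAR 2.7.3 on hg19 and DESeq2 1.24.0. Libraries came from a stranded kit; no counter, annotation release or strand setting is named there. The count table as deposited is unnormalised, in whole counts. The authors' deposited result tables hold, per the file headers, log2 fold changes with p-values; their log2 values for family genes were read.

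The tests used edgeR 4.0.16 (R 4.3.3) with filterByExpr, TMM scaling, and 1 robust quasi-likelihood fit over all 12 libraries without covariates. The fit had 9 residual degrees of freedom. The root of the common dispersion, the biological coefficient of variation, was 0.146. Adjusted p are Benjamini-Hochberg values from this test over 17532 genes unless DESeq2 (1.42.0) is named. SE is the log2 fold change over the root of the F statistic, and intervals use its degrees of freedom. Exon lengths came from GENCODE release 29, another build, matched by gene ID, without coordinates. They merge the exons of all transcripts of a gene, so ratios and ranks between genes per kilobase are approximate. Alternatives changed scaling, filter, tool, replicate block, control pair or left out 1 library. Libraries of the same number correlated above 0.1 in 3 of 12 pairs (-0.20 to 0.35), so numbers were not taken as pairs.

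The members, lists and control pairs were chosen with earlier results of these data known. Named genes are the family, GOLM1, per list and siRNA up to 3 called genes with the smallest p, list genes called in opposite directions, and the 5 genes most like OSBP2. The computations were tested on simulated data.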

Additional observations from a re-analysis of the deposited data

Results flagged for a closer look

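Among 36 groups of 4 libraries, 3 held a library far from the others; chance alone flags about 1 in 20 groups. OSBP2 in siGOLM1-2 replicate 4 was at 55.1 CPM, with the others between 23.3 and 25.4 CPM. OSBPL2 in the same library was at 42.8 CPM, with the others between 38.8 and 39.1 CPM. OSBPL6 in siGOLM1-1 replicate 4 was at 3.24 CPM, with the others between 4.54 and 4.67 CPM.

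The effect against control differed between the siRNAs, by the test of siGOLM1-1 against siGOLM1-2, for 6 of the 12 family genes, where 54.4% of all genes were called. The log2 differences were 1.17 for OSBPL9, 0.57 for OSBPL1A, -0.37 for OSBPL2, -0.71 for OSBPL8, -0.86 for OSBPL7 and -0.99 for OSBPL10, with adjusted p from 3.06e-07 to 0.00119.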

How the results depend on the processing

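The counts of calls over all genes stayed within 1.5 times in each of 20 alternatives, from 7254 to 8700 with siGOLM1-1, 6567 to 8329 with siGOLM1-2 and 8382 to 10016 between the siRNAs. With control replicates 1 and 2 alone, 5 of 9 members were called with siGOLM1-1, where 7254 genes were called in total, against 8333 with all controls. In that setting 2 of 7 enzymes of oxysterol and PS metabolism were called with siGOLM1-2. There 6567 genes were called in total, against 7885 with all controls. The OSBP2 log2 fold change ran from 2.52 to 3.18 with siGOLM1-1 and from 2.33 to 3.10 with siGOLM1-2. Reversals concerned values that were not called. With library totals alone, OSBP2 was at -0.05, OSBPL3 at -0.09 and OSBPL5 at -0.13 between the siRNAs. OSBPL5 was at -0.01 there with the filter of at least 1 CPM in 4 libraries. With control replicates 1 and 2 alone, OSBPL2 was at 0.06 with siGOLM1-1, OSBPL3 at -0.03 with siGOLM1-2, and OSBPL5 at 0.17 with siGOLM1-1 and 0.16 with siGOLM1-2. With replicates 3 and 4 alone, OSBPL9 was at -0.12 with siGOLM1-1 and OSBPL11 at 0.00 with siGOLM1-2. OSBPL2 was at 0.00 with siGOLM1-1 under DESeq2 size factors. Without 1 library at a time, the ranges between the siRNAs were -0.09 to 0.48 for OSBP2, -0.04 to 0.10 for OSBPL3 and -0.11 to 0.08 for OSBPL5; those against control were -0.06 to 0.05 for OSBPL2 with siGOLM1-1 and -0.02 to 0.09 for OSBPL6 with siGOLM1-2. The OSBP2 share of the family sum, an alternative chosen after seeing the data, was 5.52% to 7.85% with siGOLM1-2 without 1 library at a time. The cause of these shifts was not tested. With the replicate number as a block, 4 and 5 members were called with siGOLM1-1 and siGOLM1-2, in place of 3 and 4; OSBPL8 was then called with each (-0.39, adjusted p = 0.0239, and 0.34, adjusted p = 0.0436), OSBPL5 between the siRNAs was at -0.02, and all-gene calls were 8389, 7929 and 9613. Depth was lowest for OSBPL6, with 153 to 332 counts per library, and for OSBP2 in control, with 168 to 300.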
